A study of Mus musculus with 18 samples.

Results

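The chemokines and chemokine receptors were taken as the genes whose symbols begin with Ccl, Cxcl, Ccr, Cxcr or Ackr and a digit, or with Cx3c, Xcl1 or Xcr1, and whose counts summed to at least 50 over the 18 libraries. Of the 34745 genes in the deposited table, 69 matched these names and 37 reached the minimum. All 37 also passed the low-count filter used for testing, which kept 14241 genes. They comprised 13 CC ligands, 9 CXC ligands, the CX3C ligand Cx3cl1, 7 CC receptors, 4 CXC receptors, the CX3C receptor Cx3cr1 and 2 atypical receptors. The 32 matching genes below the minimum included the lymphoid ligands Ccl19 and Cxcl13, the eotaxin Ccl11, and the receptors Ccr4, Ccr6, Ccr8 and Cxcr5.

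Bone marrow-derived macrophages were cultured from C57BL/6 mice of 4 to 8 weeks of age, either carrying a global Zmat1 knockout (label KO) or wild-type littermates (label WT). Cells of all groups were grown in M-CSF at 50 ng/mL, for 3 days by the series text and 4 days by the methods of the study. They were collected without RANKL (day 0) or after 1 or 3 days with RANKL at 100 ng/mL, with M-CSF maintained. Each of the 6 groups of label and day held 3 libraries. WT day 1 had a pair of libraries numbered 1, told apart here by the single or double hyphen in their titles, and none numbered 3. A double hyphen was used in the titles of 5 libraries of days 0 and 1 and in none of day 3, and what it marks is not stated. The labels do not say whether libraries of a group came from separate mice or cultures, so p-values measure the spread between these libraries, which may be technical.

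Chemokines are small secreted or membrane-bound proteins that direct the movement of leukocytes. They bind receptors that span the cell membrane, which signal through inhibitory G proteins, phosphoinositide 3-kinase and Rac, whereas atypical receptors bind ligand without G protein signalling and clear it. In bone, macrophage precursors are drawn to the marrow and the bone surface by ligands such as Ccl2 and Cxcl12, and osteoclasts, which form by fusion of such precursors under M-CSF and RANKL, are known for high Ccr1 and Ccl9.

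The promoters of 4 members are shown because these genes carried the largest ligand level (Ccl6), the leading ligand after 3 days of RANKL (Ccl9), a receptor that rose under both labels (Ccr1) and a fall shared by both labels (Cxcl10). The sequences are from RefSeq on GRCm38.p6, cover the 250 bases before the start, and are written 5′ to 3′ on the minus strand. They lie at chr11:83593088-83593337 for Ccl6, chr11:83578637-83578886 for Ccl9, chr9:123968693-123968942 for Ccr1 and chr5:92348890-92349139 for Cxcl10. Capitals mark matches on either strand to GGGNNTTCC (a form of the NF-κB site), GAAANNGAA (interferon-stimulated response element core), TGANTCA (AP-1) or GGAAANNNT (a letter pattern that contains the NFAT core), and none of the matches overlapped another.
Ccl6: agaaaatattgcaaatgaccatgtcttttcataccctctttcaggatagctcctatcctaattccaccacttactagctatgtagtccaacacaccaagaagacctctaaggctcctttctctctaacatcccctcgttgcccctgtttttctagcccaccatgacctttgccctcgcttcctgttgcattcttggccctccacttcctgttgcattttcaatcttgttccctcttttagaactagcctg
Ccl9: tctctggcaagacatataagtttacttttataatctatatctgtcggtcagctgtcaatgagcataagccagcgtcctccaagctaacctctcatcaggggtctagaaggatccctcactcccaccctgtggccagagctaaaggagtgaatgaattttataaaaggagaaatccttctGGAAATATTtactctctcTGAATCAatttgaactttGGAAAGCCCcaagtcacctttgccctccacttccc
Ccr1: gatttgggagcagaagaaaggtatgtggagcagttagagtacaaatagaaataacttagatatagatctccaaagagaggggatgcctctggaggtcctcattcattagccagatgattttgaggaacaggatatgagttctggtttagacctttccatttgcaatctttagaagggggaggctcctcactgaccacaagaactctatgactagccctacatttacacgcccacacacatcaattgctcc
Cxcl10: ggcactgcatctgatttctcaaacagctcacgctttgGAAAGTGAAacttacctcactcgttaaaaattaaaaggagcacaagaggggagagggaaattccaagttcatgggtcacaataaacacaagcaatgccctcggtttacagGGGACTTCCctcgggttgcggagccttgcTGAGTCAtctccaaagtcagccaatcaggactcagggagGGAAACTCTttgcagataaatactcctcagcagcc

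The Ccl9 promoter held 3 matches, to GGGNNTTCC on the reverse strand, to TGANTCA and to GGAAANNNT. The Cxcl10 promoter held 4 matches, 1 to each pattern, and those of Ccl6 and Ccr1 held 0. RefSeq entries matched 28 of the 37 members, with 31 promoters. Members missing from the table included Cxcl16, Ccl4, Ccr7, Ccl2, Cxcl5, Ccl7, Ccl24 and Ccl5. Among the 31, 4 held GGGNNTTCC, 5 GAAANNGAA, 4 TGANTCA and 7 GGAAANNNT, and the shares over all 32851 promoters of the table were 4.98%, 7.13%, 6.75% and 15.4%. A match describes letters only and is not a measured binding site.

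Library totals ranged from 13789775 to 17559958 counts, and the members made up 0.127% to 0.315% of them. Zmat1 counts were 32 to 91 per library under the label WT and 49 to 99 under KO, so they did not separate the labels. Groups are therefore called the libraries labelled WT or KO. The study reports that the knockout was checked by PCR of genomic DNA and by qPCR of Zmat1. Which part of the gene was deleted is not known here, so these counts do not test the knockout. The macrophage markers, among them Adgre1 and Csf1r, summed to 28924 to 59505 CPM (counts scaled by TMM library size to a common total) on day 0 in both labels and to 6174 to 17117 CPM on day 3. Osteoclast markers such as Acp5 and Ctsk summed to 224 to 988 CPM on day 0 and 8293 to 23381 CPM on day 3, with 9 of 10 rising in both labels, and Calcr was at 0 on days 0 and 1. Markers of other cells were present too: stromal or osteoblast genes summed to 74.2 to 4213 CPM on day 0 and 9918 to 25890 CPM on day 3, and neutrophil genes to 684 to 12131 CPM on day 0 and 38.1 to 1184 CPM on day 3. Lists of B cell, T or NK cell, dendritic cell and erythroid markers summed to at most 50.7, 9.03, 11.4 and 23.8 CPM in any library. The erythroid sum split by title style, at 0 to 0.330 CPM in the double-hyphen libraries and 15.6 to 23.8 CPM in all others. The double hyphen thus went with a difference between libraries whose cause was not tested.

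A few genes held most of the ligand counts, which are not corrected for transcript length. Ccl6, Ccl9 and Cxcl12 together made up 60.8% to 92.7% of the ligand counts of each library. By deposited FPKM, which is scaled per transcript length and so allows genes to be compared, Ccl6, a myeloid CC ligand, led on day 0 with 264 ± 111 (SD, n = 3) in the libraries labelled WT and 297 ± 71.3 in those labelled KO. Ccl9, a macrophage and osteoclast ligand of Ccr1, was next at 141 ± 19.9 and 140 ± 32.4 FPKM. On day 0 Cxcl12 was at 7.38 ± 10.8 and 9.998 ± 7.71 FPKM, below Ccl3 at 38.8 ± 8.87 and 42.4 ± 12.6 FPKM. Cxcr4, the receptor of Cxcl12, was the leading receptor at 49.2 ± 8.79 and 76.7 ± 41.7 FPKM.

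The order on day 3 was different. Ccl9 led at 277 ± 58.8 FPKM in the libraries labelled WT and 175 ± 49.4 in those labelled KO. Ccr1 was second under the label WT at 76.2 ± 16.7 FPKM, above Cxcl12 at 42.7 ± 3.07, Cxcr4 at 34.1 ± 10.3, Cxcl14 at 31.5 ± 5.997 and Ccl6 at 26.2 ± 9.66, whose neighbouring ranges of mean and SD overlapped. Under the label KO, Cxcl12 came second at 106 ± 47.1 FPKM, followed by Ccl6 at 52.2 ± 31.2, Ccr1 at 49.5 ± 9.79 and Cxcr4 at 44.5 ± 30.6, all with overlapping spread. Summed over the ligands, levels were 1655 ± 505 CPM on day 0 and 1463 ± 91.9 CPM on day 3 under the label WT, and 1739 ± 349 and 1985 ± 534 CPM under KO, so the means differed by less than 1 SD of the day 0 libraries.

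**Figure D1:**
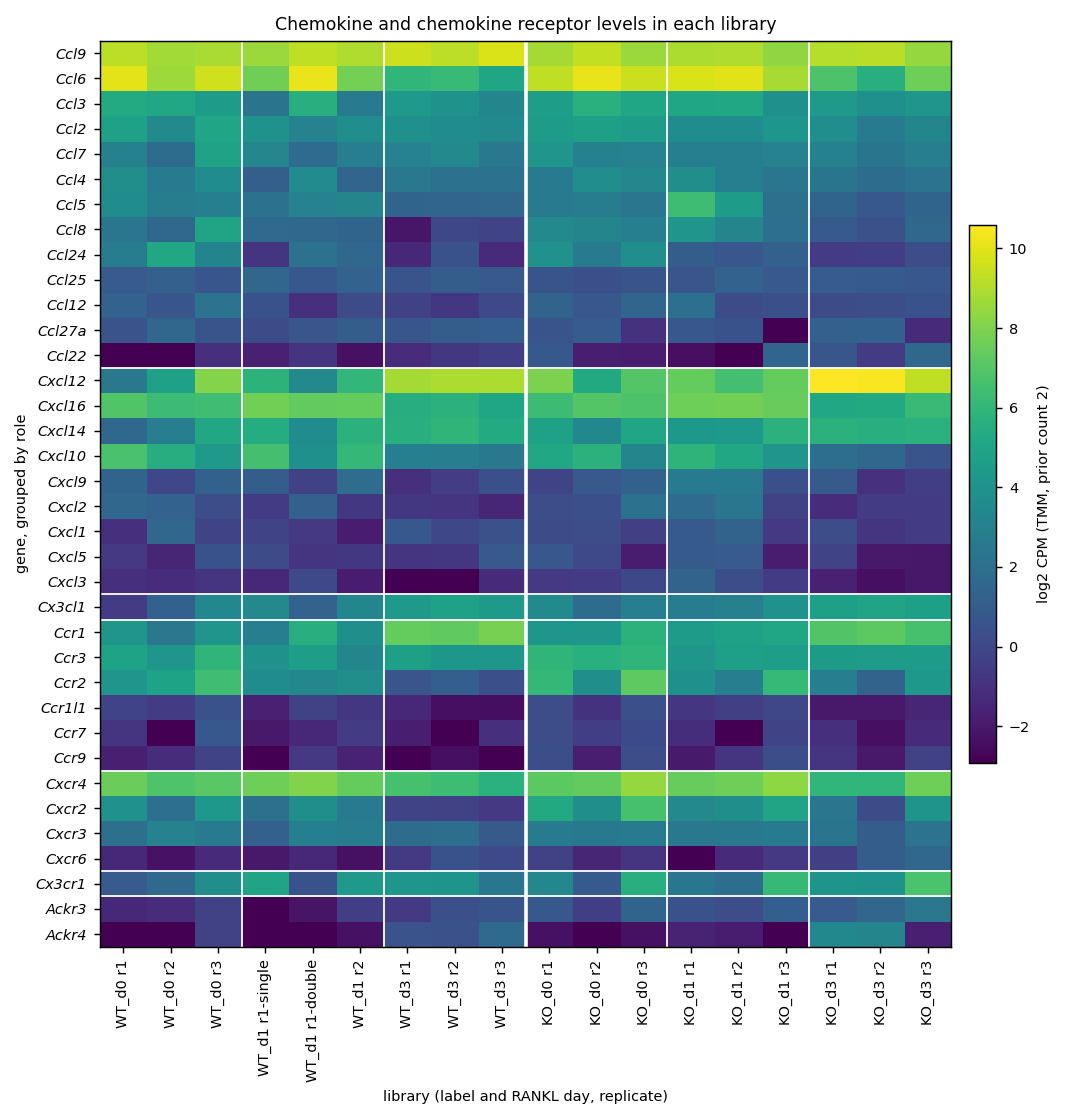
Level of each of 36 members (rows, ordered by role) in each of the 18 libraries (columns, ordered by label and day), as log2 CPM with a prior count of 2. Ccl6, Ccl9 and Cxcr4 are high in every day 0 library, and Ccr1 and Cxcl12 are at their highest on day 3.

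The first comparison set the libraries after 3 days of RANKL beside those of day 0. No library was kept in M-CSF alone to the later days. RANKL and time in culture therefore cannot be told apart in any comparison between days. In the libraries labelled WT, 2 members rose (Ccr1 and Cx3cl1) and 13 fell, taking an adjusted p under 0.05 as a call (quasi-likelihood test of edgeR, adjusted by Benjamini-Hochberg over all genes tested), against a background of 23.7% of all genes higher and 26.5% lower. In those labelled KO, 4 rose (Ackr4, Cxcl12, Ccr1 and Cx3cl1) and 12 fell, against 20.2% higher and 22.3% lower. As shares of the 37 members these were 5.41% higher and 35.1% lower under WT, and 10.8% and 32.4% under KO. The median log2 change of the members was -1.04 under the label WT and -1.03 under KO, beside -0.03 and -0.01 over all genes tested. Scaling by total counts in place of TMM, chosen after seeing the data, shifted the log2 median of all genes up by 0.36 under WT and 0.29 under KO and gave 6 members higher and 12 lower under WT, and 5 and 11 under KO. Without each library in turn, 10 of the 15 WT calls and 8 of the 16 KO calls were made in every fit.

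Because these are bulk libraries, fewer cells of a type and less RNA per cell cannot be told apart in any of these changes. The macrophage markers fell in 7 of 8 cases in both labels, the neutrophil markers in 9 of 9 in both, and the stromal markers rose in 8 of 12 (WT) and 10 of 12 (KO) over the same interval. Their part in the changes of the members was not tested.

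**Figure D2:**
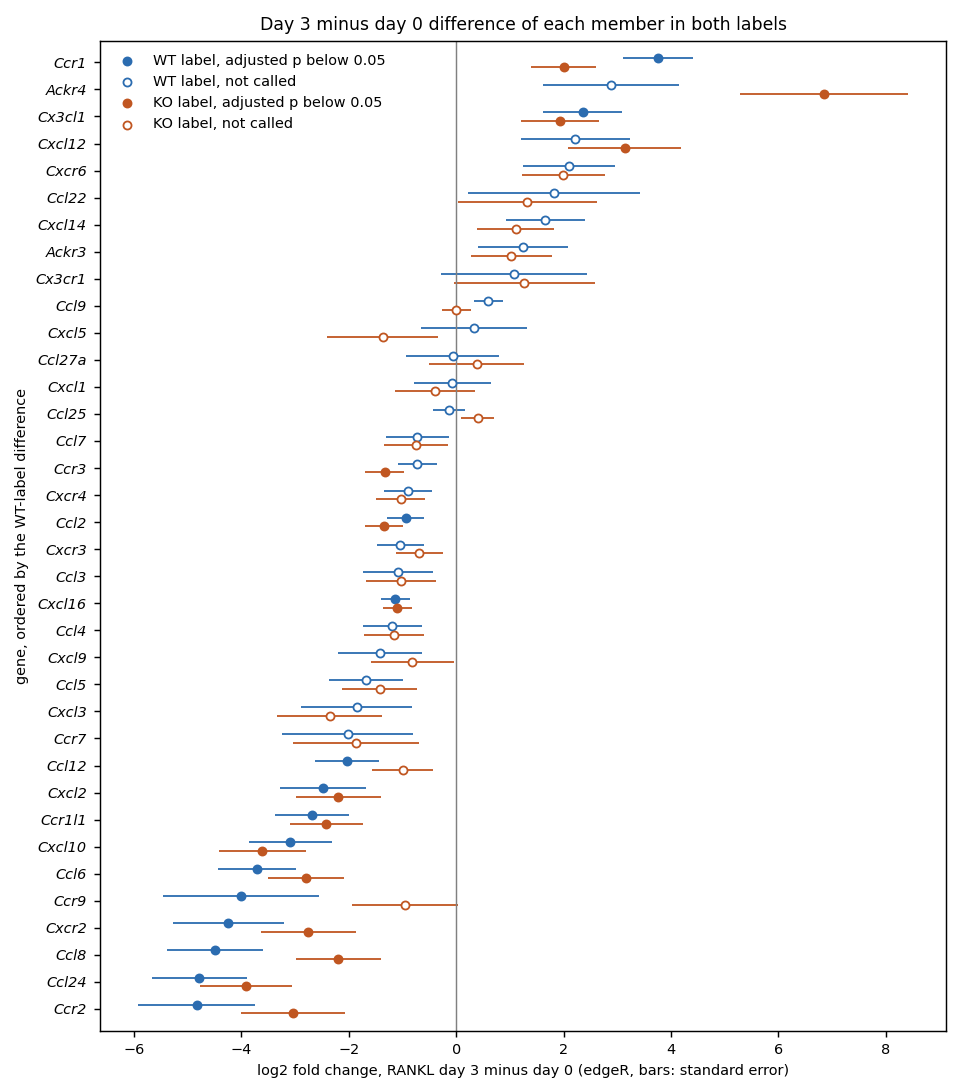
Log2 change from day 0 to day 3 of RANKL for 36 members, with the standard error, in the libraries labelled WT and KO (edgeR), and filled points where the adjusted p was under 0.05. More members fell than rose under both labels, with Ccr1 and Cx3cl1 rising in both.

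Among the CC ligands, 0 rose and 5 fell under the label WT (median log2 change -1.08), and 0 rose and 4 fell under KO (median -1.04), where 26.5% and 22.3% of all genes were lower. Ccl6 showed the largest loss of message by level. Ccl6 was at 1070.0, 387 and 781 CPM in the WT day 0 libraries and at 62.7, 76.2 and 32.8 CPM on day 3. The KO values were 631, 1117 and 724 CPM on day 0 and 111, 47.2 and 197 CPM on day 3. WT replicate 1 and KO replicate 2, the double-hyphen libraries of day 0, were the highest of their groups. Day 3 held no such library, so the size of the Ccl6 change may mix title style and day. The single-hyphen day 0 libraries, at 387 and 781 CPM (WT) and 631 and 724 CPM (KO), also lay above every day 3 library. Every day 3 library lay below every day 0 library in both labels, the change being a fall of 3.70 on the log2 scale (SE 0.73, 13.0-fold lower, adjusted p = 0.000899) under WT and of 2.80 (SE 0.70, 6.96-fold lower, adjusted p = 0.00584) under KO.

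Ccl9, the neighbour of Ccl6 on chromosome 11, did not follow it. Ccl9 was at 606, 418 and 479 CPM on day 0 and 770.4, 610.0 and 896 CPM on day 3 under the label WT. Under KO the values were 438, 661 and 378 CPM and then 538, 588 and 352 CPM. The WT groups did not overlap, but the log2 change of 0.60 (SE 0.27) had an adjusted p of 0.0804. It was 0.98, and called, when libraries were scaled by total counts. The KO groups overlapped, with a log2 change of 0.00 (SE 0.27, adjusted p = 0.998).

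Ccl3, a ligand of Ccr1, was at 40.0, 35.4 and 23.1 CPM on day 0 and 21.1, 15.9 and 9.54 CPM on day 3 under the label WT. Under KO it was at 24.4, 49.8 and 32.3 CPM and then 19.95, 14.6 and 17.4 CPM. Neither pair of groups overlapped, yet neither change passed the test, with log2 changes of -1.08 (SE 0.65, adjusted p = 0.178) and -1.04 (SE 0.65, adjusted p = 0.212).

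The ligands of the monocyte chemoattractant group and the eotaxin Ccl24, a ligand of Ccr3, started lower. Ccl24 was at 6.68, 35.2 and 8.80 CPM on day 0 and 0.258, 1.29 and 0.281 CPM on day 3 under the label WT. The KO libraries were at 15.0, 5.999 and 13.0 CPM and then 0.536, 0.612 and 1.08 CPM. The days did not overlap in either label, and Ccl24 fell by 4.79 on the log2 scale (SE 0.88, 27.6-fold lower, adjusted p = 0.00057) under WT and by 3.92 (SE 0.85, 15.1-fold lower, adjusted p = 0.00252) under KO. The WT change was -3.63 without the day 0 replicate 2, which was the highest library, and -5.93 without day 3 replicate 2. The eosinophil, basophil or mast cell list summed to 4.10 to 32.6 CPM on day 0 and 1.29 to 1.86 CPM on day 3 under WT, and to 24.7 to 238 and 1.10 to 6.29 CPM under KO, and its part in the result was not tested.

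Ccl8, a monocyte chemoattractant protein, was at 5.03, 3.02 and 31.7 CPM on day 0 and 0.103, 0.882 and 0.785 CPM on day 3 under the label WT. KO values were 10.6, 9.31 and 7.35 CPM and then 1.73, 1.22 and 2.95 CPM. The days did not overlap in either label. Ccl8 fell by 4.49 on the log2 scale under WT (SE 0.89, 22.4-fold lower, adjusted p = 0.000984), and the change was -2.74 without day 0 replicate 3, the highest library. Under KO it fell by 2.20 (SE 0.79, 4.59-fold lower, adjusted p = 0.0368), and this call was lost without any 1 of the libraries except day 3 replicate 3 (adjusted p up to 0.118).

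Ccl2, the main ligand of Ccr2, was at 28.0, 11.5 and 34.3 CPM on day 0 and 14.5, 12.5 and 11.6 CPM on day 3 under the label WT, where the groups overlapped through day 0 replicate 2. Under KO the values were 22.2, 27.2 and 23.4 CPM and then 12.9, 6.18 and 9.63 CPM, without overlap. Ccl2 fell by 0.94 on the log2 scale under WT (SE 0.35, adjusted p = 0.0364), a call lost without any 1 of the libraries except day 0 replicate 2 (adjusted p up to 0.175). It fell by 1.34 under KO (SE 0.35, 2.53-fold lower, adjusted p = 0.00769). Ccl12, another Ccr2 ligand, fell under WT by 2.04 (SE 0.59, adjusted p = 0.0108), with an adjusted p of 0.0555 without day 0 replicate 3.

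**Figure D3:**
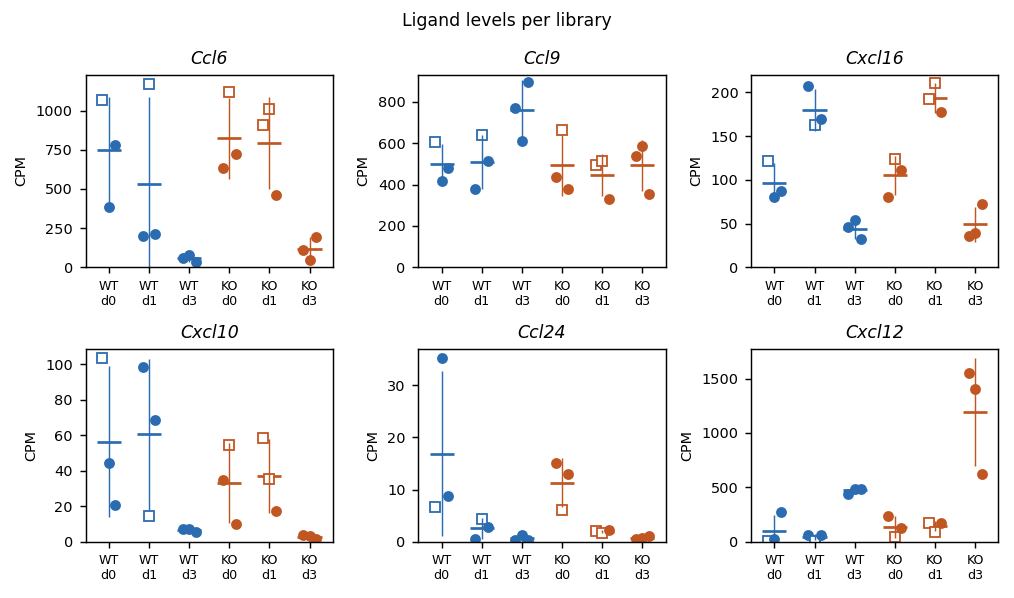
CPM (linear axis from 0) of 6 ligands in each library by label and RANKL day, with short horizontal lines for the mean and vertical lines for 1 SD that are cut at 0, n = 3 a group, and open squares for libraries with a double hyphen in the title. Ccl6 is at most 197 CPM in every day 3 library, whereas Ccl9 stays between 329 and 896 CPM in all 18.

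Of the 9 CXC ligands, 0 rose and 3 fell under the label WT (median log2 change -1.13), and 1 rose and 3 fell under KO (median -1.10), beside 26.5% (WT) and 22.3% (KO) lower over all genes. Cxcl10, an interferon-induced ligand of Cxcr3, was at 104, 44.5 and 21.0 CPM on day 0 and 7.28, 7.06 and 5.50 CPM on day 3 under the label WT. In the libraries labelled KO it was at 34.7, 54.5 and 9.76 CPM and then 3.81, 2.94 and 1.36 CPM. No day 3 library reached any day 0 library of its label, and Cxcl10 fell by 3.09 on the log2 scale (SE 0.78, 8.51-fold lower, adjusted p = 0.00478) under WT, with a log2 change of -3.61 under KO (SE 0.82, 12.2-fold lower, adjusted p = 0.00325). The WT change was -2.28 without day 0 replicate 1, and the KO change -3.01 without day 0 replicate 2.

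Cxcl16, a membrane-bound ligand of Cxcr6, was at 122, 80.9 and 87.4 CPM on day 0, 207, 163 and 169 CPM on day 1 and 45.7, 54.6 and 32.1 CPM on day 3 under the label WT. Under KO it was at 80.2, 124 and 111 CPM, then 193, 211 and 177 CPM, and then 35.98, 39.0 and 72.4 CPM. In both labels the day 1 libraries were the highest and the day 3 libraries the lowest, without overlap between days. The fall from day 0 to day 3 was 1.13 on the log2 scale (SE 0.27, 2.19-fold, adjusted p = 0.00317) under WT and 1.10 (SE 0.27, 2.14-fold, adjusted p = 0.00502) under KO. Zmynd15 overlaps Cxcl16 on the other strand, with a log2 change of -0.84 that did not pass the test under WT (adjusted p = 0.0526), and the sources do not state whether counting used strand.

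Cxcl12, the stromal ligand of Cxcr4, varied widely between libraries of the same group. Cxcl12 was at 5.44, 27.9 and 270.4 CPM on day 0 and 435, 488 and 489 CPM on day 3 under the label WT. The KO libraries were at 241, 39.0 and 127 CPM and then 1548, 1404 and 623 CPM. The days did not overlap in either label. Cxcl12 rose under KO by 3.14 on the log2 scale (SE 1.05, 8.80-fold, adjusted p = 0.0274), a call lost without day 0 replicate 2 or 3 or day 3 replicate 1 or 2 (adjusted p up to 0.088), and the change was 3.87 without day 0 replicate 1. Under WT the change was 2.22 (SE 1.02, adjusted p = 0.0816), and it was 4.84 and called without day 0 replicate 3 (adjusted p = 0.00114). That library also held the largest stromal marker sum of its group, 4213 CPM beside 74.2 and 471 CPM, and the day 3 sums were 9918 to 12932 CPM under WT and 17356 to 25890 CPM under KO. The part of the stromal markers in the Cxcl12 levels was not tested.

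Cxcl14, a CXC ligand made by epithelial and stromal cells, was at 3.05, 7.04 and 36.1 CPM and then 46.0, 60.7 and 40.3 CPM under the label WT, without overlap. Its log2 changes of 1.66 (WT, adjusted p = 0.0712) and 1.11 (KO, adjusted p = 0.227) did not pass the test. Cxcl2, a neutrophil-attracting ligand of Cxcr2, was at most 5.16 CPM in any library and fell by 2.48 on the log2 scale under WT (SE 0.81, adjusted p = 0.0199) and by 2.20 under KO (SE 0.79, adjusted p = 0.0365). The WT call was lost without day 0 replicate 1 or 2 or day 3 replicate 3 (adjusted p up to 0.0719). The KO call was lost without day 0 replicate 3 or any day 3 library (adjusted p up to 0.236, and a change of -1.24 without day 0 replicate 3) and with the replicate number as a block (adjusted p = 0.0578).

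Cx3cl1 (fractalkine), a membrane-bound ligand of Cx3cr1, rose in both labels. Cx3cl1 was at 0.577, 2.32 and 10.51 CPM on day 0 and 19.9, 28.1 and 21.2 CPM on day 3 under the label WT. KO values were 11.1, 3.46 and 7.06 CPM and then 26.0, 30.8 and 26.2 CPM. All day 3 libraries lay above all day 0 libraries of their label, with log2 changes of 2.35 (SE 0.74, 5.11-fold, adjusted p = 0.017) and 1.94 (SE 0.73, 3.84-fold, adjusted p = 0.043). The WT change was 3.999 without day 0 replicate 3, the library with the high stromal sum, and lost its call without day 0 replicate 2 (adjusted p = 0.0643). The KO call was lost without any 1 of the libraries except day 0 replicate 1 (adjusted p up to 0.133).

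Of the 7 CC receptors, 1 rose and 4 fell under each label, with a median log2 change of -2.68 (WT) and -1.80 (KO), beside 26.5% and 22.3% lower over all genes. Ccr1, a receptor of Ccl3, Ccl5, Ccl6 and Ccl9, was the receptor that rose. Ccr1 was at 17.9, 5.26 and 17.4 CPM on day 0 and 172, 155 and 223 CPM on day 3 under the label WT. In the libraries labelled KO it was at 18.7, 18.5 and 54.9 CPM and then 121, 145 and 103 CPM. The days were far apart in both labels, with log2 changes of 3.76 (SE 0.65, 13.5-fold, adjusted p = 0.000357) and 2.00 (SE 0.60, 4.003-fold, adjusted p = 0.016). The KO call was lost without day 0 replicate 1 or 2 (adjusted p up to 0.0624), and the change was 2.76 without day 0 replicate 3. The difference between the changes of the labels, -1.76 on the log2 scale (SE 0.83), had an adjusted p of 0.91 in edgeR.

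Ccr2, the monocyte receptor of Ccl2, was at 17.6, 30.3 and 85.9 CPM on day 0 and 1.45, 2.06 and 1.18 CPM on day 3 under the label WT. Under KO it was at 68.5, 13.8 and 154 CPM and then 7.03, 2.45 and 19.1 CPM. The WT days did not overlap, and Ccr2 fell by 4.83 on the log2 scale (SE 1.09, 28.5-fold lower, adjusted p = 0.00232), or by 3.91 without day 0 replicate 3. The KO days overlapped, and the fall of 3.04 (SE 0.97, 8.25-fold lower, adjusted p = 0.0213) was not called without day 0 replicate 3 or day 3 replicate 1 or 2 (adjusted p up to 0.104). That change was -2.08 without day 0 replicate 3 and -4.05 without day 3 replicate 3. The macrophage marker sums were lower in every day 3 library than in every day 0 library. Within each label, their order over the libraries was the reverse of that of Ccr2 on day 0 and the same on day 3. The neutrophil marker sums had the order of Ccr2 on both days under KO but not under WT. The part of either list in the fall of Ccr2 was not tested.

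Ccr3, the eotaxin receptor, was at 60.6, 49.6 and 59.6 CPM on day 0 and 21.9, 22.2 and 23.2 CPM on day 3 under the label KO, with no overlap, and fell by 1.33 on the log2 scale (SE 0.37, 2.52-fold lower, adjusted p = 0.01). Under WT its change was -0.73 (adjusted p = 0.107). Ccr1l1, a paralog of Ccr1 whose ligands are not established, was at most 1.29 CPM and fell by 2.68 (adjusted p = 0.00531) and 2.42 (adjusted p = 0.0109), the WT change being -3.72 without day 3 replicate 1. Ccr9, the receptor of Ccl25, had 17 counts on WT day 0 and 1 on day 3, a ratio of 23.6 (95% exact interval 3.70 to 987, counting error only). Its WT call (adjusted p = 0.0326) was lost without day 0 replicate 3 or day 3 replicate 1 or 3 (adjusted p up to 0.119), and its locus overlaps Lztfl1.

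Among the 4 CXC receptors, 0 rose and 1 fell under each label (median log2 change -0.97 and -0.86), a share near the 26.5% and 22.3% lower over all genes. The gene that fell was Cxcr2, the receptor of Cxcl1, Cxcl2, Cxcl3 and Cxcl5 and a marker of neutrophils. Cxcr2 was at 14.8, 3.87 and 19.5 CPM on day 0 and 0.774, 0.706 and 0.505 CPM on day 3 under the label WT. KO values were 38.9, 14.1 and 102 CPM and then 5.12, 1.04 and 16.8 CPM. The WT days did not overlap, and Cxcr2 fell by 4.25 on the log2 scale (SE 1.04, 19.0-fold lower, adjusted p = 0.00385). Under KO the days overlapped, and the fall of 2.75 (SE 0.89, 6.73-fold lower, adjusted p = 0.0228) was lost without day 0 replicate 3 or day 3 replicate 1 or 2 (adjusted p up to 0.129). The change was -1.76 without day 0 replicate 3 and -4.06 without day 3 replicate 3. The neutrophil marker sums of the same KO libraries were 5911, 3751 and 12131 CPM on day 0 and 349, 102 and 1184 CPM on day 3, in the same order as Cxcr2, and their part in the result was not tested.

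Cxcr4 was at 184, 118 and 139 CPM on day 0 and 100.3, 84.9 and 51.6 CPM on day 3 under the label WT, without overlap, with a log2 change of -0.90 (SE 0.45, adjusted p = 0.109). In the libraries labelled KO it was at 148, 165 and 350.1 CPM and then 62.1, 62.6 and 199 CPM, with replicate 3 the highest on both days. That change of -1.03 (SE 0.45, adjusted p = 0.0769) did not pass the test, whereas it passed with the replicate number as a block (-1.14, adjusted p = 0.00241). Cxcr6, the receptor of Cxcl16, was between 0 and 3.00 CPM, and its log2 changes of 2.09 and 2.00 did not pass (adjusted p = 0.0544 and 0.0508). Cxcr3, the receptor of Cxcl10, was between 1.68 and 8.28 CPM in all 18 libraries.

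**Figure D4:**
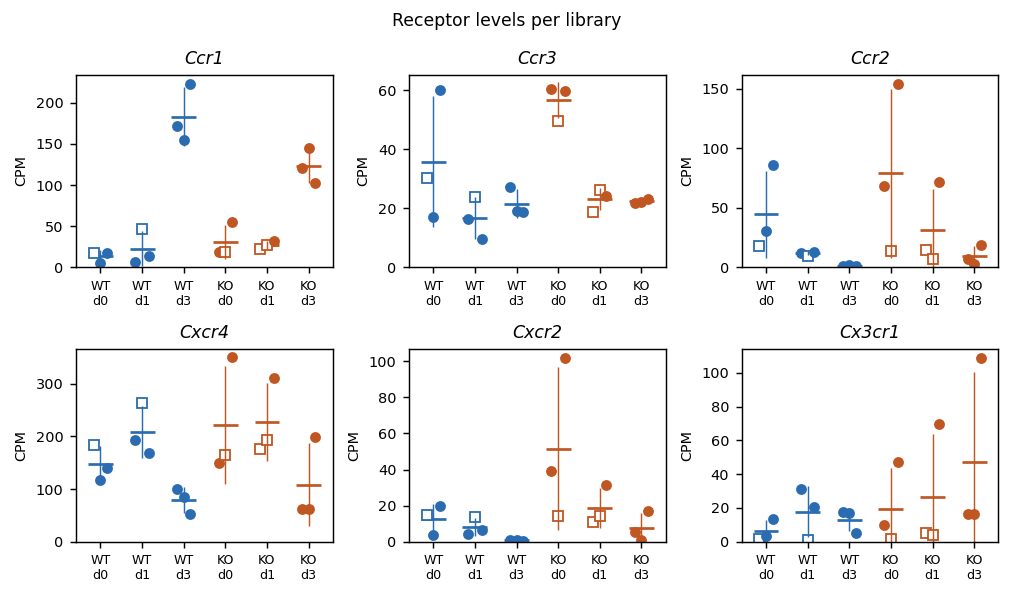
CPM (linear axis from 0) of 6 receptors in each library by label and RANKL day, with short horizontal lines for the mean and vertical lines for 1 SD that are cut at 0, n = 3 a group, and open squares for libraries with a double hyphen in the title. Ccr1 is at 103 to 223 CPM on day 3 and at most 54.9 CPM before, while Ccr2 and Cxcr2 are lower on day 3, with overlap under KO.

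Cx3cr1, the fractalkine receptor of monocytes and macrophages, varied too much within groups for a call. Cx3cr1 was at 9.84, 1.77 and 47.0 CPM on day 0 and 16.5, 16.2 and 109 CPM on day 3 under the label KO, and its log2 change was 1.27 (adjusted p = 0.454), beside 1.07 (SE 1.36, adjusted p = 0.521) under WT. Reads of Cx3cr1 may be shared with the overlapping genes Wdr48, Gorasp1, Csrnp1 and Ttc21a.

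The atypical receptor Ackr4, which scavenges Ccl19, Ccl21 and Ccl25, was at 0.715 CPM or below in every library of days 0 and 1. Ackr4 was at 0.0713, 0 and 0.0728 CPM on day 0 and 10.4, 9.24 and 0.170 CPM on day 3 under the label KO. Under WT it was at 0, 0 and 0.715 CPM and then 1.34, 1.23 and 3.09 CPM. KO day 3 replicates 1 and 2 were the highest of all libraries, while replicate 3 was lower than every WT day 3 library. The KO sums of 329 and 2 counts gave a ratio of 132 (95% exact interval 36.3 to 1095), and the WT sums of 102 and 10 gave 7.34 (3.84 to 15.8), intervals that cover counting error only. Ackr4 rose under KO (adjusted p = 0.00338) but not past the threshold under WT (adjusted p = 0.0691). All 10 WT day 0 counts were in replicate 3, so the WT ratio rests on that library, and without it Ackr4 was called under WT (adjusted p = 0.0116). It was also called under WT with total counts as the scale (adjusted p = 0.0471). It overlaps Acad11 on the other strand, whose log2 change under KO was 0.54.

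The next comparison took the first day of RANKL. In edgeR 0 members were called in either label, beside 2.35% of all genes under the label WT and 0.0211% under KO, while 6 (WT) and 5 (KO) had an unadjusted p under 0.05. DESeq2 called 4 under WT (Ccl24, Ccl8, Ccr3 and Cxcl16) and 1 under KO (Ccl5). Shares over all genes at an unadjusted p or in DESeq2 were not computed, so these counts are given only as values. The WT count was 5 without the day 1 library numbered 1 with a double hyphen (Ccl24, Ccl3, Ccl4, Ccr3 and Cxcl16) and 2 without day 0 replicate 3 (Ccl24 and Cxcl14). Ccl3 illustrates the first of these libraries: it was at 46.6 CPM there and at 4.81 and 6.20 CPM in the other WT day 1 libraries. Ccl6 behaved alike, at 1171 CPM there and 202 and 215 CPM in the others. The double-hyphen libraries of KO day 1 were also the highest of their group. Ccl6 was at 908 and 1011 CPM in them beside 461 CPM, and Ccl3 at 32.5 and 34.4 CPM beside 14.5 CPM.

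Cxcl16 was the member whose day 1 libraries lay above all day 0 libraries in both labels, with log2 differences of 0.89 (WT, adjusted p = 0.0812) and 0.88 (KO, adjusted p = 0.287). Ccl5, a ligand of Ccr1 and Ccr3 made by activated leukocytes, was at 6.20, 6.92 and 5.10 CPM on KO day 0 and 84.9, 23.3 and 4.03 CPM on day 1. Its change of 2.62 had an adjusted p of 0.228, and it was 3.15 and called without day 1 replicate 3 (adjusted p = 0.0353), the lowest library. That library was the single-hyphen library of its group, so the fit without it left only double-hyphen libraries on KO day 1. The part of title style in this call was not tested.

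From day 1 to day 3, 4 members rose and 7 fell under the label WT, against a background of 12.7% higher and 19.3% lower. Under KO 4 rose and 10 fell, against 12.5% and 15.5%. Scaling by total counts gave 5 and 5 under WT and 4 and 6 under KO. These comparisons share their day 3 libraries with the comparisons against day 0, so they are given only as values. Ccr1, Cxcl12, Cxcr6 and Ackr4 were the 4 that rose under each label, with log2 changes of Ccr1 of 3.02 (WT, adjusted p = 0.00271, or 4.14 without the double-hyphen day 1 library) and 2.15 (KO, adjusted p = 0.0171, and up to 0.0676 without day 1 replicate 1 or 2 or day 3 replicate 2). Ccl6, Cxcl10 and Cxcl16 fell under both labels, Cxcl16 by 2.03 (adjusted p = 0.000184) and 1.98 (adjusted p = 0.000289).

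Some falls from day 1 were called under 1 label, and the difference between labels was not tested for them. Ccl5 fell by 4.05 on the log2 scale under KO (adjusted p = 0.00157), from the high day 1 values above to 2.56, 1.59 and 2.61 CPM. The change was -2.56 without day 1 replicate 1, the highest library. Cxcr4 fell by 1.40 under WT (adjusted p = 0.0306), a call lost without the double-hyphen day 1 library or day 3 replicate 2 or 3 (adjusted p up to 0.118). With the replicate number as a block, KO also gave falls of Ccr2 (adjusted p = 0.0176), Cxcr2 (adjusted p = 0.0484) and Cxcr4 (adjusted p = 0.00281), and lost Ccr1l1 (adjusted p = 0.0594) and Cxcl9 (adjusted p = 0.0673). Of the calls from day 1 to day 3, 5 of 11 under WT and 5 of 14 under KO held without each library in turn, those under KO being Ackr4, Ccl5, Ccl6, Cxcl10 and Cxcl16.

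Between the labels, edgeR called 0 members on any of the 3 days, while 0.119% (day 0), 0.112% (day 1) and 0.14% (day 3) of all genes were called. An unadjusted p under 0.05 was found for 2, 4 and 5 members, where shares over all genes were not computed. DESeq2, likewise without such shares, called 0, 0 and 1. That member was Cxcr2, at 0.774, 0.706 and 0.505 CPM under WT and 5.12, 1.04 and 16.8 CPM under KO on day 3, which do not overlap. Its log2 difference of 3.51 (SE 1.02) had an adjusted p of 0.253 in edgeR, and the neutrophil marker sums were 38.1 to 71.1 CPM under WT and 102 to 1184 CPM under KO. Ccr2 was higher under KO on day 3 by 2.61 (adjusted p = 0.395) and Ccl9 differed by -0.62 (adjusted p = 0.438), both without overlap and both short of the threshold.

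On day 1 the lowest p-value of a member was that of Ccl5, with a log2 difference of 2.35 (adjusted p = 0.454), which was 2.88 and called without KO day 1 replicate 3 (adjusted p = 0.0242). Ccl3 was called without the double-hyphen WT day 1 library (2.296, adjusted p = 0.0378). The Ccl5 fit left only double-hyphen libraries in KO day 1, and the Ccl3 fit only single-hyphen libraries in WT day 1. The part of title style in these calls was not tested. The change from day 0 to day 3 was compared between the labels by an interaction term, and edgeR called 0 members, with 0 at an unadjusted p under 0.05, 0 in DESeq2 and 0% of all genes called. Ccl8, with a difference of 2.29 between the label changes, and Ccr1 had the lowest p-values (adjusted p = 0.91 for both).

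Ligands can be set beside their receptors. Ccl9 stayed at 329 CPM or more in every library while Ccr1 rose in both labels, whereas Ccl6, another Ccr1 ligand, fell. In the Ccl2 and Ccr2 pair both genes fell in both labels, with overlap of the days for Ccl2 under WT and Ccr2 under KO. Cxcl12 rose under KO, where Cxcr4 had a log2 change of -1.03 that did not pass the test, and Cxcl16 fell while its receptor Cxcr6 stayed at or below 3.00 CPM. For Cx3cl1, the ligand rose and the receptor Cx3cr1 was not called.

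Many members lie in gene clusters. The chromosome 11 cluster, at chr11:82035571-83664683 on GRCm38, holds Ccl2, Ccl7, Ccl12, Ccl8, Ccl5, Ccl9, Ccl6, Ccl3 and Ccl4, of which 0 rose and 4 (WT) or 3 (KO) fell from day 0 to day 3. Over all genes 26.5% (WT) and 22.3% (KO) were lower, a background that also applies to the clusters on chromosomes 9 and 5. The chromosome 9 receptor cluster holds 7 members, among them Ccr9, Cxcr6, Ccr1, Ccr1l1, Ccr3 and Ccr2, of which 1 rose and 4 fell in each label. Within it Ccr1 rose while Ccr2 and Ccr1l1 fell. The chromosome 5 cluster, at chr5:90759360-92348889, holds Cxcl5, Cxcl3, Cxcl1, Cxcl2, Cxcl9 and Cxcl10, of which 2 fell in each label. Paralogs within a cluster are alike in sequence, and how the authors' counting treated shared reads was not given in the sources used here.

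**Figure D5:**
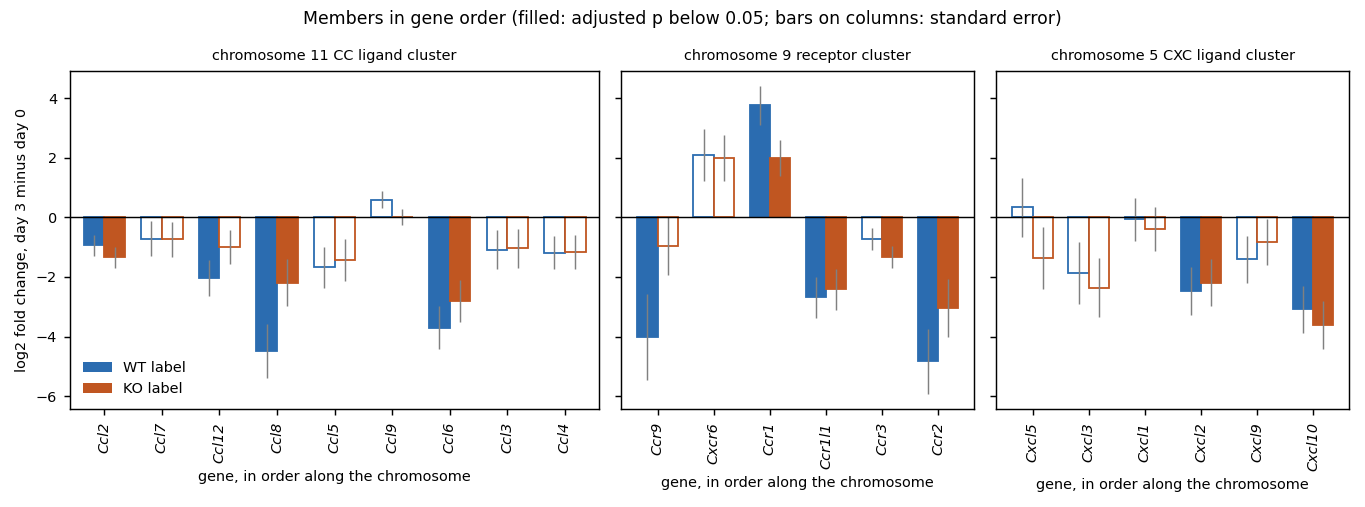
Log2 change from day 0 to day 3 (columns, edgeR, lines for the standard error, filled where called) of members of the 3 clusters, in their order along the chromosome, for the libraries labelled WT and KO. In the receptor cluster Ccr1 rises while Ccr1l1 and Ccr2 fall under both labels.

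Signalling genes that act downstream of the receptors were taken as a list of 36. From day 0 to day 3, 3 rose and 18 fell under the label WT (median log2 change -0.65), and 2 rose and 20 fell under KO (median -0.58), where 23.7% (WT) and 20.2% (KO) of all genes tested were higher and 26.5% and 22.3% lower. The G protein subunit genes Gng2 (-2.28 and -2.01) and Gnai2 (-0.73 and -0.61) fell, as did Pik3r6, a regulator of phosphoinositide 3-kinase gamma (-2.69 and -2.35), Rgs2, which limits G protein signalling (-2.31 and -2.20), Arrb2, which encodes a beta-arrestin (-1.68 and -1.62), and the Rac activator Dock2 (-1.57 and -1.41). Adrbk2, a G protein-coupled receptor kinase gene, rose by 3.09 and 2.04, Elmo1 and Tiam1 rose under WT by 0.59 and 1.20, and Gnai1 rose under KO by 2.11.

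A further 9 genes of chemokine-like function lie outside the naming rule. Under the label WT 1 rose, Mif (2.11), and 6 fell, among them Pf4 (-2.64), a platelet and macrophage chemokine, and Ppbp (-4.55), with a median of -1.87. Under KO Mif (1.95) and Rarres2, the gene for chemerin (2.15), rose and 5 fell, with a median of -1.10. Over all genes tested, 23.7% were higher and 26.5% lower under WT, and 20.2% and 22.3% under KO. The chemerin receptor gene Cmklr1 fell by 2.70 and 2.02. Between the labels, and in the interaction, 0 genes of either list were called in edgeR.

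Over the 18 libraries, the genes with the levels most like those of Ccl6 were Slc9a3r1 (Pearson r = 0.985), Cd53 (0.984) and Rnf130 (0.980). Among those most like Cxcr4 were Zdhhc18 (0.924) and Treml4 (0.893). These correlations of log2 CPM describe libraries that share days and cell composition and carry no test.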

How the data were processed

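RNA was extracted with a column kit and made into SMARTER mRNA-seq libraries, 18 in all. The authors deposited 1 table with raw counts and FPKM per gene. Per the labels, StringTie and the builds GRCm38.p4 and mm10 were used in processing, without a version, and the methods of the study name Ballgown for FPKM. The aligner, counting program and strand setting were not given in the sources used here. Deposited counts were used for all tests and CPM, and deposited FPKM for comparing levels between genes. Columns of no sample numbered 0.

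Tests were run with edgeR 4.0.16 under R 4.3.3 (filterByExpr, TMM, glmQLFit and glmQLFTest on all 18 libraries, 6 groups of label and day, common dispersion 0.0945). P-values are 2-sided and adjusted by Benjamini-Hochberg over 14241 genes, and members were called at an adjusted p under 0.05. DESeq2 1.42.0 was an alternative. The fits were also run on simulated data with independent libraries, which cannot show how the tests behave where libraries are correlated. Log2 CPM used a prior count of 2. Totals of 13789775 to 17559958 counts per library set the precision, and duplicate reads from PCR could not be separated from distinct molecules.

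Per-library values were given for members called between days 3 and 0 whose mean reached 5 CPM in the group with more (at most 8 rising and 8 falling per label), for members called between labels, and for the 6 members with the highest mean FPKM. Other members named with values were chosen after their values were seen. Results for a few genes are not reported here. The members and lists were chosen with earlier results of these data known.

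Same-number libraries labelled KO deviated together between days 0 and 3 (r 0.130 to 0.398) and days 1 and 3 (0.156 to 0.340). The main fit had no block, so its KO standard errors and p-values leave this pairing out. A fit with the number as a block was run as an alternative. Alternatives were DESeq2 size factors, total counts, other filters, fits on the compared groups, title style as a covariate, the threshold of the study (unadjusted p under 0.05, fold above 1.5 or below 0.66) and leaving out each library.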

Additional observations from a re-analysis of the deposited data

How the results depend on the processing

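In the libraries labelled WT, 15 members were called between days 0 and 3, 23 with the unadjusted threshold of the study, and the count stayed within 1.5 times under the other alternatives. Under the label KO the 16 calls became 9 to 15 without 1 library, 9 without day 0 replicate 3 or day 3 replicate 2 and 10 without day 3 replicate 1. From day 0 to day 1, the 0 WT calls became 4 in DESeq2, 1 with title style as a covariate, 6 with the threshold of the study, 3 on single-hyphen libraries only (chosen after seeing the data) and 0 to 5 without 1 library. The 0 KO calls became 1 in DESeq2, 5 with the threshold of the study and 0 to 1 without 1 library. From day 1 to day 3, 11 WT calls became 6 to 11 without 1 library (6 without the double-hyphen day 1 library or day 3 replicate 3). The 14 KO calls became 8 with a filter of at least 5 CPM in 3 libraries and 7 with title style. They became 5 to 12 without 1 library (5 without day 1 replicate 1 or day 3 replicate 2, 6 without day 1 replicate 2, 9 without day 3 replicate 1). The single-hyphen libraries left 1 library in KO day 1, so no count is given for that fit. Between the labels, the 0 calls became 2, 4 and 5 on days 0, 1 and 3 with the threshold of the study, 0 to 1 on day 1 without 1 library, and 1 on day 3 in DESeq2. The cause of these differences was not tested. Shares over all genes were not computed for the alternatives, so their counts are given only as values. Fewer genes were tested with the stricter filter, and fewer libraries entered the fits without 1 library or on single-hyphen libraries only.

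With the replicate number as a block within the label, the KO calls between days 0 and 3 numbered 16, of which 15 were shared with the fit without the block, and those between days 1 and 3 numbered 15, of which 12 were shared. Numbers did not pair the WT libraries by the same check. Their block counts were 19 (14 shared) and 11 (10 shared). A block shared by both labels turned the Ccl9 change between days 0 and 3 under KO from 0.00 to -0.0039, and without 1 library it ranged from -0.145 to 0.299. For 50 results on single members and 796 alternatives, 679 kept direction and side of the threshold, 93 lost the call, 19 gained it and 5, all for Ccl9, turned direction. Members below about 1 CPM, such as Ccr9, Ccr1l1 and Cxcl3, rested on few counts, and differences in them were limited by depth.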
